A study of Mus musculus with 90 samples.

Results

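Histone methylation writers are enzymes that add methyl groups to lysines or arginines of the histone tails, and erasers are enzymes that take them off. In the oocyte both kinds are stored as maternal transcripts and proteins, and the marks they set are rebuilt after fertilization while the embryonic genome is switched on, a step that in the mouse occurs mainly at the 2-cell (2c) stage. Lysine erasers fall into the flavin-dependent LSD1 family and the Jumonji family, and many writers act inside multi-subunit complexes such as COMPASS on H3K4 and polycomb repressive complex 2 (PRC2) on H3K27. A set of 49 such genes, 36 writers and their core partners and 13 erasers, was taken by symbol from a table of 24422 mouse genes, and all 49 were listed there. All 49 were also among the 16511 genes tested, which reached 1 CPM (a count scaled to the library total) in at least 5 libraries.

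Transcripts were counted in single metaphase II (MII) oocytes, 2c embryos and 8-cell (8c) embryos of CD-1 mice by a method that reads the 5′ ends of poly(A) RNA, with spike-in RNA added in equal amount to each library. WT oocytes and embryos were compared with those of females homozygous for a Plag1 knockout, a constitutive loss of a zinc finger transcription factor. Both kinds of female were superovulated and, for embryos, mated with WT males, so that the embryos named matPlag1KO were heterozygous and lacked the maternal allele, while the MII oocytes of the same name came from knockout females. Oocytes were picked without culture 21 to 23 h after the ovulating hormone, 2c embryos at 45 to 47 h and 8c embryos at 71 to 73 h after culture in KSOM medium, with 16, 14 and 15 libraries per genotype. The donor female of a library was not given, so p-values measure the spread between these libraries. A value per embryo sums all of its cells, whose number rises with the stage and was not given beyond the stage name, so fewer cells and less RNA per cell cannot be told apart.

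After 12 libraries of low content were left out, 78 remained: 16 WT and 14 matPlag1KO oocytes, 11 and 11 2c embryos, and 15 and 11 8c embryos. They held 92475 to 2502421 gene counts, with the lowest group medians at 2c, and were prepared as 2 separate library pools, A and B, each with every group. Genotypes also fell into different well rows: in pool A the WT oocytes were in row A and the knockout oocytes in row B, in pool B the reverse, and at 2c 9 of 11 WT embryos were in row C and all 11 matPlag1KO embryos in row D. Within a pool the oocyte genotype cannot be told apart from the well row, and at 2c it can be told apart only through 2 WT embryos. At 8c the genotypes shared well rows but no well column in either pool, so genotype and column cannot be told apart there. Plag1 followed the labels in oocytes: it was counted in all 16 WT oocytes (326 counts) and in 3 of 14 knockout oocytes (4 counts). At 2c it was counted in 1 of 11 WT embryos (1 count) and in 9 of 11 matPlag1KO embryos (91 counts), which carry a WT paternal allele. The summed level of 11 oocyte markers set some oocytes apart. It was 6422 to 10900 CPM in 11 oocyte libraries, namely all 8 WT oocytes of pool B, 1 WT oocyte of pool A and 2 knockout oocytes of pool B, and 16460 to 38510 CPM in the other 19. Stage and oocyte results below are therefore also given by pool or without those 11 libraries. The cumulus cell markers, from the cells that surround an oocyte, had median sums of 20.1 to 41.4 CPM per group, with 6 to 10 of the 15 genes at 0 in a group.

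Between 27 and 34 of the 49 members were counted in every library of a group, except at 2c in matPlag1KO embryos, where 20 were. In WT 2c embryos Setd7 and Smyd2, both lysine methyltransferases, had no count in any library. Across members the mean level spanned a wide range in each group, from under 1 CPM for Kmt2a, Kdm4d and Prmt6 in WT oocytes to 516 CPM for Kmt2d, the writer of H3K4 methylation at enhancers. Since only 5′ ends were counted, levels were not divided by transcript length. The 13 erasers made up a median of 25.4% to 32.1% of all member counts in the 6 groups, and single libraries ranged from 16.6% to 38.7%.

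**Figure D1:**
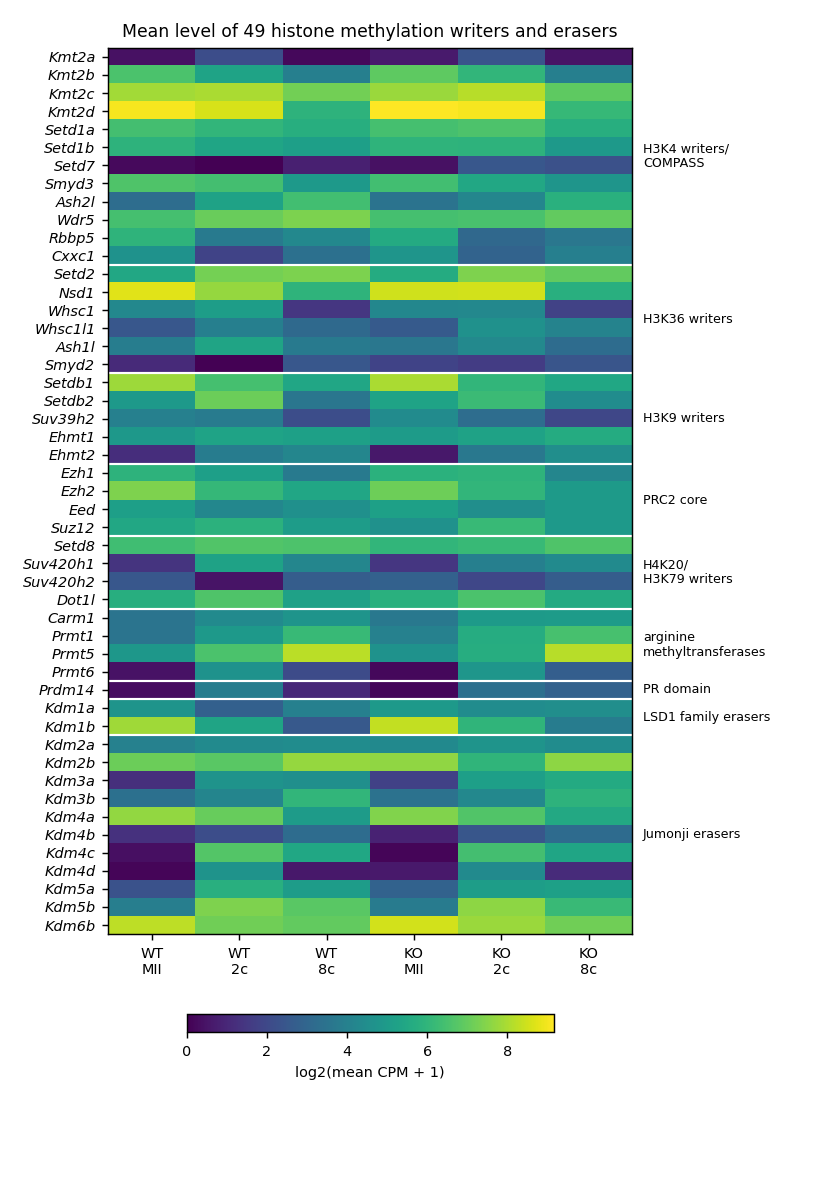
Mean level of each of the 49 genes (rows, grouped by role) in the 6 groups (columns; KO stands for matPlag1KO), as log2(mean CPM + 1). Kmt2d, Nsd1 and Kdm6b were high in oocytes, Kdm4c, Prmt6 and Prdm14 were near 0 in oocytes and present at 2c, and Prmt5 was highest at 8c.

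From the WT oocyte to the 2c embryo, member transcripts fell more often than they rose, at about the rate of all genes. On the scale of spike-in counts, which follows the amount of RNA per embryo, 25 members fell and 9 rose (edgeR quasi-likelihood test, adjusted p under 0.05), where 51.3% of all genes tested fell and 14.1% rose. The median log2 change was -1.41 over the members and -1.46 over all genes tested, or -1.10 over the members with Setd7 and Smyd2, at 0 in WT 2c embryos, set to the bound that 3 counts allow. On TMM factors, which remove the overall loss of RNA, the median of all genes was -0.03, and 11 members fell (22.4%) and 18 rose (36.7%), where 23.1% of all genes tested fell and 27.5% rose. All 9 members that rose on spike-in counts were called higher on TMM factors too, and of the 25 that fell 20 were still lower, 11 of them past the threshold. The other 5, Kmt2c, Kdm2a, Suz12, Setd8 and Ehmt1, had values above 0 on TMM factors, none past the threshold. Without the 11 oocyte libraries of low marker level 33 fell and 7 rose, where 57% of all genes tested fell and 9.35% rose.

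**Figure D2:**
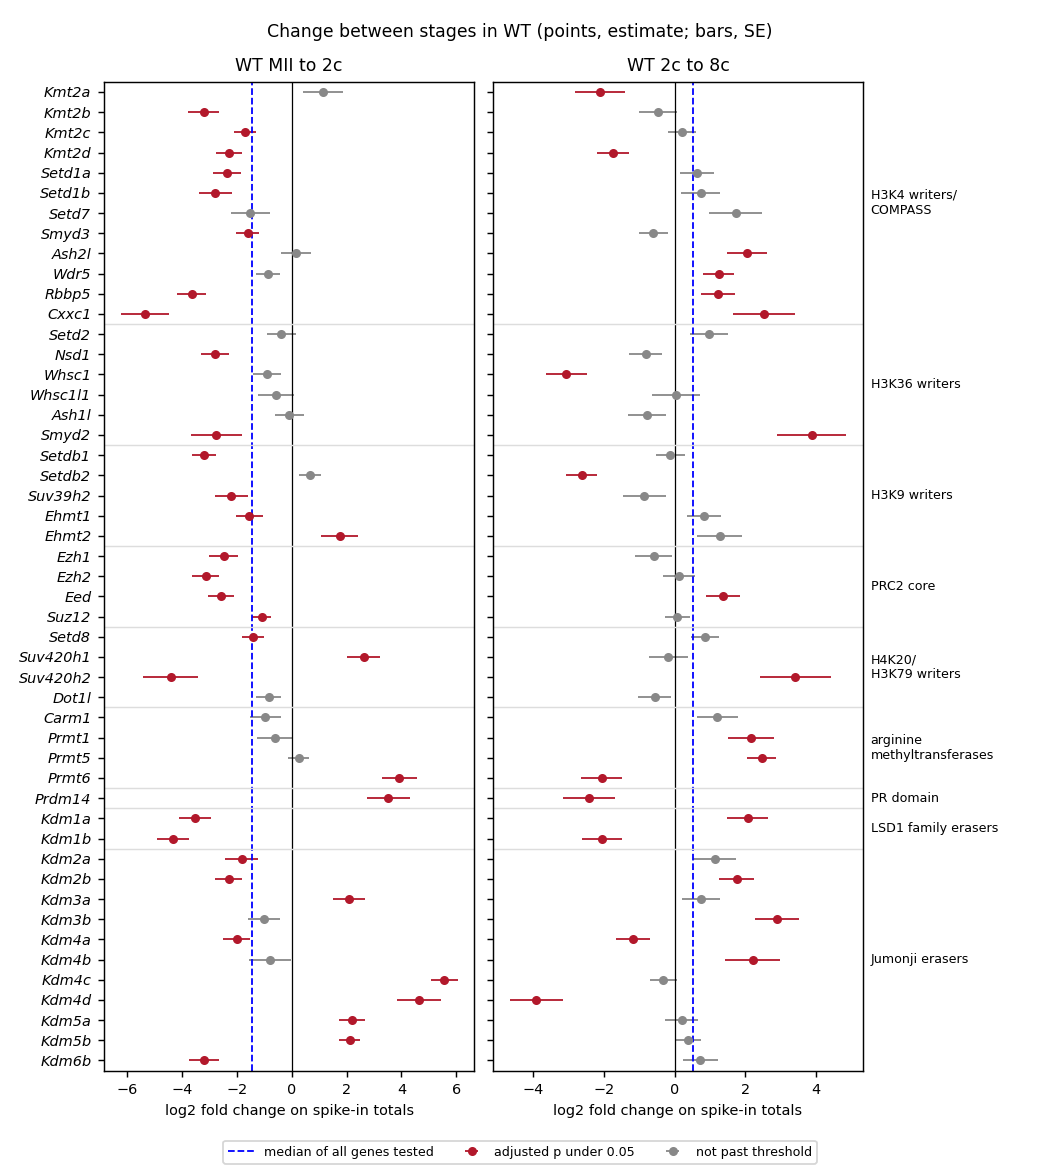
Log2 fold change of each member on spike-in totals from MII to 2c (left) and from 2c to 8c (right) in WT, with SE bars and genes grouped by role. The dashed line is the median of all genes tested (-1.46 and 0.53), and red points passed the test. The fitted values of Setd7 and Smyd2, with no count in WT 2c embryos, are not bounds.

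Of the 9 members that rose at 2c 5 were Jumonji erasers, out of 11 such erasers among the 49 members, where 14.1% of all genes tested rose. Kdm4c, an eraser of H3K9 and H3K36 trimethylation, lay between 0 and 0.169 counts per 1000 spike-in counts in WT oocytes with a median of 0. In WT 2c embryos it lay between 0.658 and 3.95 with a median of 1.79, and in WT 8c embryos between 0.440 and 5.51 with a median of 1.33. No WT oocyte reached the lowest WT 2c embryo. The rise from MII to 2c was 5.56 on the log2 scale (SE 0.49, adjusted p = 3.34e-17 by edgeR), and from 2c to 8c its value was -0.33 (adjusted p = 0.495). Its relative Kdm4d had 1 count in 1 of 16 WT oocytes, 49 counts in 8 of 11 WT 2c embryos and 3 counts in 1 of 15 WT 8c embryos. Per 1000 spike-in counts its median and highest values were 0 and 0.0983 at MII, 0.206 and 1.40 at 2c, and 0 and 0.300 at 8c, with overlap because 3 2c embryos had no count. It rose by 4.64 (SE 0.79, adjusted p = 4.06e-07 by edgeR) and then fell by 3.92 (SE 0.76, adjusted p = 9.18e-06 by edgeR). With so few counts in the low groups, the ratio of the counts summed over each group and scaled to spike-in totals was 75.7 for the rise (95% exact counting interval 12.97 to 3051) and 27.0 for the fall (8.71 to 136). Prmt6, which methylates an arginine of the H3 tail, was counted in 3 of 16 WT oocytes, in all 11 WT 2c embryos and in 8 of 15 WT 8c embryos. Its median level was 0, 0.445 and 0.0881 counts per 1000 spike-in counts, and it rose by 3.93 (SE 0.64, adjusted p = 1.78e-07 by edgeR) and fell by 2.07 (SE 0.57, adjusted p = 0.00183 by edgeR). The ratio of summed counts for its rise was 25.8 (counting interval 8.32 to 129).

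Prdm14, a PR domain factor of the germ line and of pluripotent cells, followed the same course: 2 counts in 16 WT oocytes, 27 in 8 of 11 WT 2c embryos and 7 in 4 of 15 WT 8c embryos, with log2 changes of 3.52 (adjusted p = 6.77e-05) and -2.42 (adjusted p = 0.00478 by edgeR). The ratio for its rise was 20.9 (counting interval 5.24 to 181). Kdm5a and Kdm5b, erasers of H3K4 trimethylation, rose by 2.19 and 2.12, and Suv420h1, a writer on H4K20, rose by 2.62. Kdm5b had medians of 0.675, 2.83 and 3.30 counts per 1000 spike-in counts at the 3 stages in WT, and Kdm5a of 0.150, 1.00 and 1.23. From 2c to 8c the values of Kdm5a, Kdm5b and Suv420h1 were 0.20, 0.38 and -0.18, none past the threshold. The H3K9 eraser Kdm3a (2.09) and the H3K9 writer Ehmt2 (1.75) completed the 9. Kdm3a and Ehmt2 no longer passed without the 11 oocyte libraries (log2 changes 1.28 and 1.42, adjusted p = 0.0800 and 0.121 by edgeR), while the other 7 did.

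The start regions of these genes are shown because the counts were taken at 5′ ends. The 150 bases before the listed start, on the strand of the gene and from the mm9 genome, are given in lower case with each CG pair in capitals, for 4 genes that rose at 2c and for the 2 LSD1 family genes that fell:
Kdm4c, chr4:73888251-73888400, plus strand: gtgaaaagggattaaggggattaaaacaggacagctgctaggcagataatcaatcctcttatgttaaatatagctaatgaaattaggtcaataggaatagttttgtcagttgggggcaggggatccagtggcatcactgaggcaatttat
Kdm4d, chr9:14304927-14305076, minus strand: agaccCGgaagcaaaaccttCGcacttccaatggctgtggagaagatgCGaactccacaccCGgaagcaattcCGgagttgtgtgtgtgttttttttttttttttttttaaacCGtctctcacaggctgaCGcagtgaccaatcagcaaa
Prmt6, chr3:110053918-110054067, minus strand: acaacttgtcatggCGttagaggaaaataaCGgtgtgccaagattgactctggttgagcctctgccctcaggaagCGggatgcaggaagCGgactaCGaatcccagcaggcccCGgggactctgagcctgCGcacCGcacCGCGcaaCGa
Prdm14, chr1:13117245-13117394, minus strand: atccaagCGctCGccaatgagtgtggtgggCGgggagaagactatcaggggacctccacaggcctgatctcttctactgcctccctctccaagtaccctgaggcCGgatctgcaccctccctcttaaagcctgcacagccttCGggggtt
Kdm1b, chr13:47138718-47138867, plus strand: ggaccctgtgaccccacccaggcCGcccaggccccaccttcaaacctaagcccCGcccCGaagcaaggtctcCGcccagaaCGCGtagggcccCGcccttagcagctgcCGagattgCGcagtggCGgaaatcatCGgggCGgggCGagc
Kdm1a, chr4:136158639-136158788, minus strand: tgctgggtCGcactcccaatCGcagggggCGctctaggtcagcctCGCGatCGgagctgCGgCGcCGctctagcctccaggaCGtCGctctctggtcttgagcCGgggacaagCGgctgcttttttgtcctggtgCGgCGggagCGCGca
These stretches held 0 CG pairs for Kdm4c, 7 for Kdm4d, 11 for Prmt6, 5 for Prdm14, 13 for Kdm1b and 17 for Kdm1a. Over windows of 300 bases, 250 before and 50 after the start, a CpG content of at least 0.6 of that expected from base composition was found in 41 of 49 members (83.7%) and in 61.8% of all genes tested. It was found in 7 of the 9 members that rose at 2c and in 22 of the 25 that fell. A simplified form of the PLAG1 consensus, GRGGC (R is A or G) followed after a short gap by GGG, was searched on both strands of the same windows. It occurred in 18 members (36.7%) and in 32.8% of all genes tested. This pattern is not the longer motif whose enrichment the paper reports over wider promoter windows. TATAAA occurred in 2 members (4.08%) and in 8.51% of all genes, on either strand. For 47 of the 49 members the listed start lay within 50 bases of a transcript start in the GENCODE M1 annotation of the same genome.

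Of the 12 H3K4 writers and COMPASS subunits 8 fell at 2c and none rose on spike-in totals, where 51.3% of all genes tested fell and 14.1% rose. On TMM factors 3 of the 8, Kmt2b, Cxxc1 and Rbbp5, were still called lower, while Kmt2d, Setd1a, Setd1b and Smyd3 were lower but not past the threshold and Kmt2c had a value above 0. Cxxc1, the COMPASS subunit that binds unmethylated CpG, lay between 0 and 22.7 counts per 1000 spike-in counts in WT oocytes (median 1.11) and between 0 and 0.303 in WT 2c embryos (median 0), with 5 counts in 3 of 11 embryos. It fell by 5.35 (SE 0.88, adjusted p = 2.06e-07 by edgeR) and rose by 2.54 (adjusted p = 0.0125) to 8c, when 13 of 15 WT embryos held it. Rbbp5, a core subunit shared by all COMPASS complexes, went from a median of 2.17 (range 0.712 to 9.02) to 0.263 (range 0.108 to 0.564) and then 0.500 counts per 1000 spike-in counts, and no WT 2c embryo reached the lowest WT oocyte. It fell by 3.66 (SE 0.52, adjusted p = 3.37e-09 by edgeR). Kmt2b, the writer that methylates H3K4 across the growing oocyte genome, fell by 3.21, Setd1b by 2.79 and Setd1a by 2.37, the last 2 on spike-in totals only. Ash2l and Wdr5, the other shared core subunits, showed 0.15 and -0.87 at this step, not past the threshold, and rose by 2.04 and 1.25 from 2c to 8c, Wdr5 on spike-in totals only (0.29 on TMM factors, adjusted p = 0.509 by edgeR).

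Both LSD1 family erasers of H3K4 methylation fell, where 51.3% of all genes tested fell. Kdm1b, known for its work in the oocyte, lay between 3.05 and 78.2 counts per 1000 spike-in counts in WT oocytes (median 9.25), between 0 and 1.49 in WT 2c embryos (median 0.825) and between 0 and 0.972 in WT 8c embryos (median 0.0864). The WT oocytes did not overlap with either later stage. It fell by 4.34 (SE 0.58, adjusted p = 7.78e-10 by edgeR) and again by 2.06 (SE 0.56, adjusted p = 0.00153 by edgeR), in all by 6.4 from MII to 8c. Kdm1a fell by 3.52 from a median of 1.01 to 0.101, and then rose by 2.06 (adjusted p = 0.00198) to 0.426 counts per 1000 spike-in counts, a rise that did not pass on TMM factors (1.22, adjusted p = 0.0574 by edgeR). Another gene, Dek, runs on the other strand across part of Kdm1b, and whether strand was used in counting was not stated.

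**Figure D3:**
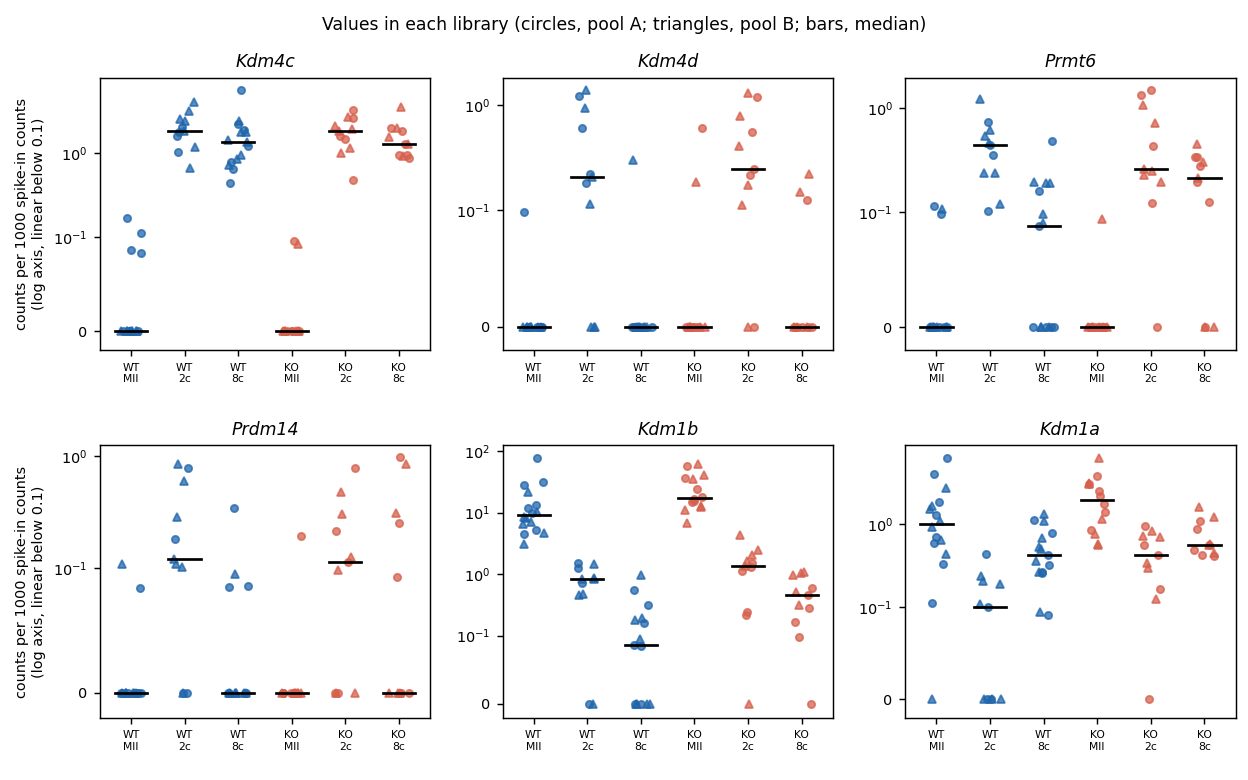
Counts per 1000 spike-in counts of 6 members in each library by group (KO stands for matPlag1KO; circles, pool A; triangles, pool B; bars, medians; log axis, linear below 0.1). Kdm4c was at or near 0 in all oocytes and above 0.4 in all embryos, and Kdm1b fell at both steps in WT.

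The counts of the other roles at 2c stand against 51.3% of all genes tested that fell and 14.1% that rose. All 4 PRC2 core genes fell, from -3.14 for Ezh2, the catalytic subunit, to -1.10 for Suz12. On TMM factors the value of Suz12 was above 0, while Ezh2 and Eed were still called lower. Of the 5 H3K9 writers 3 fell, among them Setdb1 by 3.21, and 1 rose. Of the 6 H3K36 writers 2 fell, Nsd1 by 2.81 and Smyd2, which went from 12 counts to none. With the 2c group set to 3 counts, Smyd2 was 2.59-fold or more lower when the 12 counts are taken as exact. Its fall did not pass on TMM factors (-2.33, adjusted p = 0.101 by edgeR). Of the 11 Jumonji erasers 5 rose and 4 fell, among the latter the H3K27 eraser Kdm6b by 3.20 and the H3K36 eraser Kdm2b by 2.31, the latter on spike-in totals only. By pool, pool A alone gave 24 members lower and 5 higher, where 46.9% of all genes tested there were lower and 7.56% higher. Pool B alone gave 14 lower and 10 higher, where 30% were lower and 15.9% higher. The medians over all genes tested were -2.17 and -0.67. Kdm4c, Kdm4d, Prmt6, Prdm14, Cxxc1, Kdm1b and Rbbp5 passed in both pools.

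From WT 2c to 8c embryos 13 members rose and 9 fell, where 31.9% of all genes tested rose and 16.2% fell. The median log2 change was 0.38 over the members, or 0.22 with Setd7 and Smyd2 at their bound, and 0.53 over all genes tested. On TMM factors 8 members rose (16.3%) and 20 fell (40.8%), where 21% of all genes tested rose and 28.9% fell. Of the 13 called higher on spike-in counts 8 were also called higher on TMM factors, and the 9 called lower were all called lower there.

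Of the 4 arginine methyltransferases 2 rose from 2c to 8c, 1 fell and 1 did not pass, where 31.9% of all genes tested rose. Their sum went from a median of 2.87 to 15.0 counts per 1000 spike-in counts, with ranges of 1.55 to 6.02 and 9.54 to 19.5 that did not overlap. Prmt5, which methylates arginines symmetrically, made up most of that sum at 8c, and lay between 0.505 and 4.12 in WT 2c embryos (median 1.24) and between 6.74 and 13.3 in WT 8c embryos (median 10.5). Prmt5 rose by 2.47 (SE 0.42, adjusted p = 6.17e-07 by edgeR). Prmt1, the main asymmetric enzyme, rose by 2.16 (SE 0.65, adjusted p = 0.00435 by edgeR), from a median of 0.564 to 2.97. In pool A alone the rise of Prmt1 was 2.06 and did not pass (adjusted p = 0.116). Carm1, the arginine methyltransferase that acts with nuclear receptor coactivators, had a value of 1.21, not past the threshold, and Prmt6 fell as given above.

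Kdm3b, an eraser of H3K9 methylation, rose by 2.91 (SE 0.62, adjusted p = 5.47e-05 by edgeR), from a median of 0.438 (range 0 to 0.808) to 1.67 (range 0.240 to 12.8) counts per 1000 spike-in counts, with overlap of the groups. Smyd2 went from no count to 30 counts in 9 of 15 WT 8c embryos, 6.05-fold or more higher when the 30 counts are taken as exact. Suv420h2 went from 1 count to 38, a ratio of 23.0 (counting interval 3.88 to 931). Among members that fell, Whsc1, a writer of H3K36 dimethylation, dropped from a median of 0.755 to 0, with 7 of 15 WT 8c embryos holding any count. It fell by 3.07 (SE 0.57, adjusted p = 4.96e-06 by edgeR). The H3K9 writer Setdb2 dropped from a median of 2.45 (range 0.606 to 5.19) to 0.360 (range 0.0885 to 1.04), a fall of 2.64 (SE 0.44, adjusted p = 3.74e-07 by edgeR). Kmt2d fell by 1.75 at this step after a fall of 2.30 at the first.

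Its paralog is Kmt2c, which fell by 1.71 at the first step and had a value of 0.22, not past the threshold, at the second. Within a library the share of Kmt2c in the counts of the pair does not depend on how libraries are scaled. This share was 35.5% ± 12.7 (SD, n = 16) in WT oocytes, 42.0% ± 11.9 (n = 11) in WT 2c embryos and 69.2% ± 8.13 (n = 15) in WT 8c embryos. The 2c embryos ranged from 27.2% to 57.0% and the 8c embryos from 51.2% to 83.8%. The difference between 2c and 8c was 27.2 percentage points in a two-sided permutation test (p = 2e-05, the smallest that the 100000 resamples can give, adjusted p = 0.00086 over 43 tests on 10 pairs). It was 29.6 points in pool A (4 against 7 embryos, exact permutation p = 0.00606, adjusted p = 0.145) and 26.8 points in pool B (7 against 8, exact permutation p = 0.000311, adjusted p = 0.00839). In matPlag1KO the shares were 30.6% ± 12.1, 36.7% ± 13.1 and 63.9% ± 15.5, and at none of the stages did they differ from WT past the threshold (adjusted p from 0.624 to 0.684, permutation tests).

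**Figure D4:**
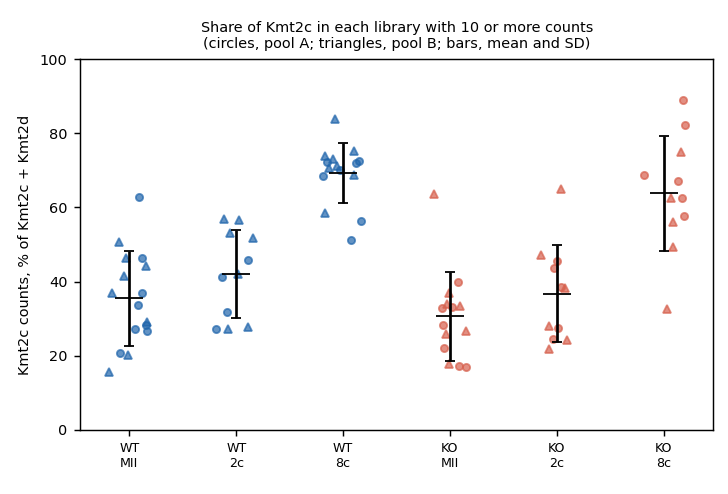
Share of Kmt2c in the counts of Kmt2c and Kmt2d in each library with at least 10 counts on the pair, by group (KO stands for matPlag1KO; circles, pool A; triangles, pool B; bars, mean and SD). The mean was 42.0% in WT 2c and 69.2% in WT 8c embryos, with the same order of stages in matPlag1KO.

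The remaining 42 tests of paired genes did not pass. The nearest were the share of Kdm1a in the LSD1 pair, which went from 12.2% ± 11.2 to 77.3% ± 31.7 between WT 2c and 8c with only 5 libraries a stage holding 10 counts (exact permutation p = 0.0159, adjusted p = 0.226), and the share of Kdm5a in Kdm5a and Kdm5b, which was 25.8% ± 8.78 in WT and 16.4% ± 7.97 in matPlag1KO 2c embryos (permutation p = 0.0168, adjusted p = 0.226). With libraries of at least 5 counts on the pair the former passed (7 against 11 libraries, exact permutation p = 0.000503, adjusted p = 0.0121).

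Over both steps together, 12 members were higher and 22 lower in WT 8c embryos than in WT oocytes, where 27.1% of all genes tested were higher and 43.6% lower. After Kdm1b the lowest log2 changes were those of Kmt2d (-4.05), Whsc1 (-3.97), Kmt2b (-3.67) and Nsd1 (-3.63), and that of Kdm4c was 5.23. In matPlag1KO, 9 members rose and 28 fell from MII to 2c, where 13.5% of all genes tested rose and 50.3% fell. From 2c to 8c 8 members rose and 7 fell, where 29.1% rose and 19.5% fell. Kdm4c rose there by 6.10, Prmt6 by 4.87 and Prdm14 by 2.95 at the first step, and Kdm1b fell by 4.13 and Cxxc1 by 3.96. These comparisons share 2c libraries with each other, and each is given by its own values.

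Between the genotypes, 1 call was made among the members over the 3 stages. At MII none of the 49 was higher and none lower in matPlag1KO than in WT (edgeR), where 0.309% of all genes tested were higher and 0.472% lower. At an unadjusted p under 0.05, 1 member was higher and 1 lower, where 900 of the 16511 genes tested were higher and 790 lower. DESeq2 called 1 member lower, where it called 0.297% of all genes tested lower. The median log2 difference was 0.04 over the members and 0.00 over all genes on TMM factors, and 0.30 over both on spike-in totals, where no member was called either. The member of lowest p was Suz12, at a median of 31.6 CPM (range 9.42 to 144) in WT and 20.8 CPM (range 16.2 to 37.8) in knockout oocytes, a log2 difference of -0.87 (SE 0.27, adjusted p = 0.119 by edgeR, and 0.0369 by DESeq2). Without the 11 oocyte libraries of low marker level no member was called either. A fit with well as a replicate block called 2 members higher, Kdm2b and Kdm1b, where 3.99% of all genes tested were higher and 0.915% lower.

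Kdm6b, the H3K27 eraser, had opposite orders of the genotypes in the 2 pools of oocytes. Its median was 478 CPM in WT and 158 CPM in knockout oocytes of pool A, and 128 CPM in WT and 476 CPM in knockout oocytes of pool B. The genotype difference at MII was thus -0.87 on the log2 scale in pool A (adjusted p = 0.371) and 1.62 in pool B (adjusted p = 0.00933, edgeR), against 0.26 over both. The higher median was that of row A in both pools: 478 CPM in WT and 476 CPM in knockout oocytes of row A, and 128 and 158 CPM in row B. With the well row as a term, an alternative chosen after seeing the data, the genotype difference was 0.37 (adjusted p = 0.770) and row B was lower than row A by a log2 value of -1.29 (SE 0.29, adjusted p = 0.00413, edgeR), where 2.59% of all genes tested were lower in row B. In pool B all 8 WT oocytes and 2 of the 7 knockout oocytes were among the 11 of low marker level. Setdb1 was also called higher in knockout oocytes of pool B alone (1.18, adjusted p = 0.0439 by edgeR) and lower in row B (-0.95, adjusted p = 0.0179 by edgeR). As the rows of the genotypes were reversed between the pools, the row term is the same contrast as a difference in genotype order between pools. The row values of Kdm6b and Setdb1 therefore restate the values by pool and are no separate test, and their cause was not tested.

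At 2c, 1 member was higher and none lower in matPlag1KO embryos, where 2.30% of all genes tested were higher and 2.62% lower. At an unadjusted p under 0.05, 4 members were higher and 7 lower, where 1882 of the 16511 genes tested were higher and 1498 lower. On spike-in totals 4 members were higher and 0 lower at that level, where 2148 of all genes were higher and 906 lower. The median log2 difference was 0.13 over the members and 0.12 over all genes, and on spike-in totals 0.27 and 0.28, with the same number of calls. The summed level of the 2-cell markers, transcripts that peak at the genome activation, had a median of 203 CPM in WT (range 83.3 to 1097) and 567 CPM in matPlag1KO 2c embryos (range 254 to 1657), with Zscan4f, Tcstv1 and Tcstv3 at 0 in both, and its part in the results at 2c was not tested. The member called was Setd7, a lysine monomethyltransferase of H3K4 and of other proteins, whose gene lies at chr3:51319240-51364745 (mm9). It had 13 counts in 3 of 11 matPlag1KO embryos (5, 1 and 7 counts) and none in the 11 WT embryos. With the WT group set to the 3 counts that a sum of 0 allows, this is 3.70-fold or more higher when the 13 counts are taken as exact, and the exact 95% counting interval of the ratio reached down to 2.61 (fitted log2 difference 4.24, SE 1.19, adjusted p = 0.0247 by edgeR). The call was lost without the matPlag1KO library of pool A well D2 (adjusted p = 0.0534) or that of pool B well D6 (adjusted p = 0.0823, edgeR), in either pool alone, and DESeq2 gave it no adjusted p. With the well row as a term no member was called at 2c, and 0 genes were higher and 2 lower of all tested. The value of Setd7 was again 4.24 (SE 2.73, adjusted p = 0.685 by edgeR). That fit sets genotype apart from row only through 2 WT embryos. Setd7 had 4 counts in WT and 3 in knockout oocytes, and 5 in WT and 11 in matPlag1KO 8c embryos. It overlaps a gene on the other strand that had no count at 2c.

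The 4 members that followed by p did not pass. Kdm1a had 13 counts in 6 of 11 WT and 51 counts in 10 of 11 matPlag1KO 2c embryos, with medians of 5.75 and 23.1 CPM (log2 difference 1.72, SE 0.59, adjusted p = 0.0663 by edgeR and 0.0212 by DESeq2). Prmt5 had medians of 63.7 and 39.0 CPM, with overlapping ranges of 28.7 to 203 in WT and 0 to 134 in matPlag1KO (-0.88, SE 0.35, adjusted p = 0.116 by edgeR). Smyd3, a writer of lysine methylation, had medians of 91.1 and 46.9 CPM (-0.94, SE 0.39, adjusted p = 0.135 by edgeR). Suv420h1 had medians of 31.9 and 7.70 CPM and no count in 4 matPlag1KO embryos (-1.33, SE 0.55, adjusted p = 0.140 by edgeR). In pool B alone Prmt5 (-1.81, adjusted p = 0.0147) and Suv420h1 (-3.28, adjusted p = 0.0134, edgeR) passed, while in pool A alone their differences were -0.31 and -0.02. With the well row as a term they were 0.35 (SE 0.66) and -0.20 (SE 1.04), not past the threshold. That fit sets genotype apart from row only through 2 WT embryos, so it gives only a rough estimate of these differences.

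**Figure D5:**
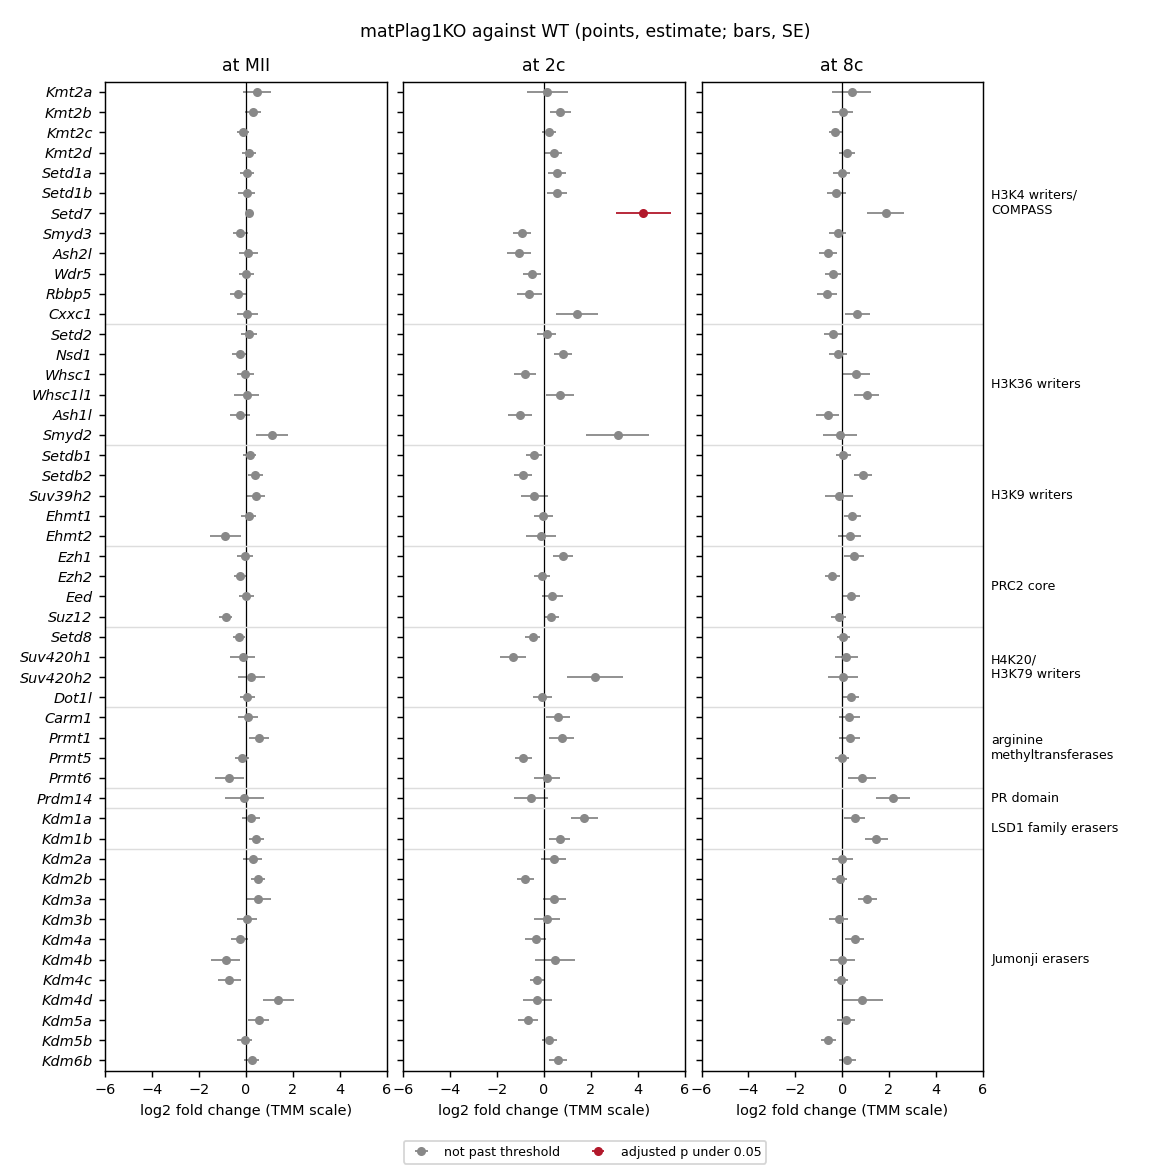
Log2 difference of matPlag1KO against WT for each member at MII, 2c and 8c (TMM scale), with SE bars. Of all points only Setd7 at 2c passed the test, and the SE of Setd7 at MII, where it had 7 counts in all, is not drawn.

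At 8c no member was called (edgeR), where 1.21% of all genes tested were higher and 0.527% lower in matPlag1KO. At an unadjusted p under 0.05 5 members were higher and none lower, where 1356 of the 16511 genes tested were higher and 1007 lower. DESeq2 called 2 members higher, Kdm1b and Kdm3a, where it called 1.62% of all genes tested higher. Kdm1b had a median of 2.39 CPM in WT and 9.53 CPM in matPlag1KO 8c embryos (log2 difference 1.46, SE 0.49, adjusted p = 0.0967 by edgeR and 0.0250 by DESeq2). Prdm14 had 7 counts in 4 of 15 WT and 21 counts in 5 of 11 matPlag1KO embryos (2.17, SE 0.72, adjusted p = 0.0967 by edgeR). The 8-cell markers summed to a median of 1622 CPM in WT and 608 CPM in matPlag1KO 8c embryos, and their part in these values was not tested. As given above, genotype at 8c cannot be told apart from the well column.

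The test of whether the genotype difference itself changed between stages called no member, for 2c against MII (3.31% of all genes tested) or for 2c against 8c (2.30%). Unadjusted, 7 and 4 members had p under 0.05. For 2c against MII 1607 of the 16511 genes tested had such a p with a value above 0 and 1316 below 0. For 2c against 8c these were 1552 and 1406. The lowest adjusted p was that of Setdb2 for 2c against 8c, 0.0543 by edgeR, with a genotype difference of -0.89 at 2c and 0.90 at 8c.

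Lists of partners and relatives outside the 49 genes were also counted. From WT MII to 2c, 16 of 24 PRC1 and PRC2 partners fell and 1 rose, as did 10 and 0 of 11 COMPASS partners, 5 and 1 of 8 partners of H3K9 methylation, 8 and 1 of 15 further writers, and 4 and 0 of 9 further erasers, where 51.3% of all genes tested fell and 14.1% rose. From 2c to 8c 9 PRC1 and PRC2 partners rose and 5 fell, where 31.9% of all genes rose and 16.2% fell. At 2c 4 of these genes differed between genotypes by edgeR, where 2.30% of all genes were higher and 2.62% lower in matPlag1KO. Cbx1, a heterochromatin protein that binds methylated H3K9, was lower in matPlag1KO (-1.66, SE 0.34, adjusted p = 0.00158), as was Pcgf5, a subunit of PRC1 (-1.27, SE 0.34, adjusted p = 0.0162). Bod1, a partner of a COMPASS complex (1.54, adjusted p = 0.0170), and Uhrf1, which binds methylated H3K9 and hemimethylated DNA (1.32, adjusted p = 0.0389), were higher. With the well row as a term, 0 genes were higher and 2 lower of all tested at 2c, so neither Bod1 nor Uhrf1 was called. That fit sets genotype apart from row only through 2 WT embryos, so its loss of calls cannot decide on these genes. Whether Cbx1 or Pcgf5 was among the 2 lower genes is not given here. In pool A alone 0 of all genes tested at 2c were called in either direction. The difference of Cbx1 itself differed between 2c and MII (-1.59, adjusted p = 0.0245) and between 2c and 8c (-1.94, adjusted p = 0.00858, edgeR). Between 2c and 8c the same test called Pcgf5 (-1.75, adjusted p = 0.0224) and Ncoa6, a COMPASS partner (2.00, adjusted p = 0.0469, edgeR). At 8c Rnf2, a catalytic subunit of PRC1, was higher in matPlag1KO (1.30, SE 0.35, adjusted p = 0.0349 by edgeR). Genotype and well column cannot be told apart at that stage.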

How the data were processed

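Single MII oocytes, 2c and 8c embryos were profiled with a modified STRT protocol, which tags the 5′ ends of poly(A) RNA with molecular identifiers. The authors demultiplexed and trimmed the reads, joined the identifiers, mapped to mm9 with TopHat and deposited raw counts per gene, made with HOMER, for 24422 genes and 92 spike-in RNAs; whether strand was used is not given in the sources used here. Groups came from the labels. Libraries whose median fell under 1 CPM were left out, and a gene was tested where 5 or more kept libraries reached 1 CPM. edgeR 4.0.16 (R 4.3.3, quasi-likelihood test, all 6 groups in 1 fit, Benjamini-Hochberg adjusted p under 0.05 over all genes tested) used spike-in totals for stages and TMM factors for genotypes. Replicate libraries differed by more than counting noise (lowest chi-square per degree of freedom 3.54), so none was counted as a repeat. Pair shares were compared by permutation tests (SciPy 1.17.1) in libraries with at least 10 counts on the pair. Promoter windows came from the GENCODE mouse genome of build mm9. Intervals and floors of 3 counts cover counting error only. Given in full were members called between genotypes, the 5 of lowest p at 2c, and the 3 highest and 3 lowest changes per WT step among called members with a mean of 20 CPM in either group; members were otherwise described by role. The members and all lists were chosen with earlier results of these data known. Alternatives were DESeq2 1.42.0, other scalings and filters, each pool alone, pool as a term, a block for well, and, chosen after seeing the data, the well row as a term and leaving out each 2c library or the 11 oocyte libraries of low marker level. Only the edgeR fit was tested on simulated counts, for WT MII to 2c and for the genotypes at 2c.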

Additional observations from a re-analysis of the deposited data

How the results depend on the processing

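Of the recomputed counts 154 stayed within 1.5 times and 46 did not. The 154 include counts that stayed at 0 and refits without 1 library, and a count can stay while its genes change. Prmt5, called lower from MII to 2c in matPlag1KO on spike-in totals (-0.95), was called higher on TMM factors (1.04, adjusted p = 0.00574 by edgeR), and the median member change from MII to 2c in WT went from -1.41 to 0.40. For MII to 2c in WT, 9 members higher became 18 on TMM factors, 5 in pool A and 18 by DESeq2, and 25 lower became 11 on TMM factors, 14 in pool B and 10 by DESeq2. In the same order, the share over all genes tested went from 14.1% higher to 27.5%, 7.56% and 23.3%. The share lower went from 51.3% to 23.1%, 30% and 20.2%. For WT 2c to 8c, 13 higher became 8 on TMM factors, 3 in pool A and 6 by DESeq2, and 9 lower became 20, 4 and 22. Over all genes tested, 31.9% higher became 21%, 18.4% and 18%, and 16.2% lower became 28.9%, 8.33% and 25.5%. For WT MII to 8c, 12 higher became 7 in pool A and 22 lower became 13 in pool B. All-gene shares went from 27.1% to 19.4% higher in pool A and from 43.6% to 30.2% lower in pool B. For matPlag1KO MII to 2c, 9 higher became 19 on TMM factors, 5 in pool B and 22 by DESeq2, and 28 lower became 7 on TMM factors, 16 in pool A and 6 by DESeq2. Over all genes tested, 13.5% higher became 29.1%, 9.45% and 27.7%, and 50.3% lower became 19.3%, 40.8% and 14.3%. For matPlag1KO 2c to 8c, 8 higher became 4 on TMM factors and by DESeq2, 14 with all libraries kept, 5 in pool A and 13 when only these groups were fitted, and 7 lower became 20 on TMM factors, 4 with all libraries, 2 in pool A, 3 in pool B and 22 by DESeq2. All-gene shares higher went from 29.1% to 21.2% on TMM factors, 17.2% by DESeq2, 31.8%, 17% and 30.3%. Those lower went from 19.5% to 30.3%, 18%, 11.6%, 12.7% and 27%. DESeq2 used its own size factors from the gene counts and not the spike-in totals, so its stage counts, like those on TMM factors, are on another scale. The cause of the other differences was not tested. For the genotypes, 0 higher at MII became 2 in pool B (Kdm6b and Setdb1), and 0 lower became 1 by DESeq2 (Suz12). There 2.42% of all genes tested were higher in pool B, and 0.297% were lower by DESeq2. The 1 higher at 2c became 0 in either pool, 0 with the well row as a term (2 WT embryos share a row with matPlag1KO) and 0 to 2 without each library in turn, and 0 lower became 2 in pool B and 0 to 1 without each library, Prmt5 or Suv420h1 being called without 1 matPlag1KO library of pool A each and Kdm1a without 1 WT library. In pool B 2.32% of all genes tested were lower at 2c. DESeq2 again called 1 member higher at 2c, but it was Kdm1a and not Setd7, where 4.44% of all genes tested were higher. At 8c 0 higher became 1 when only these groups were fitted (Kdm3a) and 2 by DESeq2 (Kdm3a and Kdm1b). The shares of all genes tested called higher there were 1.61% and 1.62%. The 1 pair share called between stages became 3 with at least 5 counts on the pair and 0 in pool A. Of 14 pairs of WT and knockout oocytes in the same well, 12 had deviations correlated over 0.1 and the lowest was -0.03, and the main fits did not pair the wells. The median correlation was 0.27 in the same well, -0.06 in other wells of the same row and 0.01 in the other row. Of the 14 WT oocytes 12, and of the 14 knockout oocytes 11, correlated best with the oocyte of the same well in the other pool, a hint from the data and not the design, whose cause was not tested. With well as a replicate block 2 members, Kdm2b and Kdm1b, were called higher at MII, and the calls over all genes went from 51 to 658 higher and from 78 to 151 lower. The sparse 2c libraries limit the genotype comparison for members with few counts.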
